A study of Homo sapiens with 4 samples.

Results

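The inhibitors of cyclin-dependent kinases (CDKs) and the regulators MDM2 and MDM4 of p53 were examined in Jurkat cells, a human T-cell acute lymphoblastic leukemia line, after LEF1 knockdown. The members were chosen by gene symbol: CDKN1A, CDKN1B, CDKN1C, CDKN2A, CDKN2B, CDKN2C, CDKN2D, MDM2 and MDM4. All probe sets annotated to 1 of these symbols alone were used, which gave 30 of the 54613 probe sets tested, from 8 of the 9 genes. CDKN2C, which encodes an inhibitor of CDK4 and CDK6, was not analysed here, and neither was the p53 gene. The siLEF1 group consisted of Jurkat cells that received a pool of LEF1 siRNAs at 100 nM, and the siNT group of Jurkat cells that received a pool of non-targeting siRNAs at 100 nM. Both groups were cultured for 24 h, and each had 2 Affymetrix HG-U133 Plus 2.0 arrays that the labels call biological replicates. All 4 arrays come from 1 cell line, whose mutant p53 both groups share.

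The cell cycle passes from G1 to S phase when cyclins bind CDKs, and these complexes phosphorylate RB1 so that E2F factors are released. The CIP/KIP inhibitors, encoded by CDKN1A, CDKN1B and CDKN1C, bind complexes of cyclins with CDKs, whereas the INK4 inhibitors, encoded by CDKN2A, CDKN2B, CDKN2C and CDKN2D, bind CDK4 and CDK6 themselves. CDKN2A also encodes ARF, which binds MDM2, the ubiquitin ligase that marks p53 for degradation, and MDM4 is a relative of MDM2 that holds back the activity of p53. In T-cell leukemia the CDKN2A and CDKN2B locus on chromosome arm 9p is often deleted, and Jurkat is known as a line that has lost CDKN2A.

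Signals are log2 values of the robust multichip average (RMA), 1 per probe set and array, and a difference of 1 is a 2-fold change. Differences are siLEF1 minus siNT, tested with limma on all 54613 probe sets with Benjamini-Hochberg adjustment. Calls required both a fold change over 2 and an adjusted p under 0.05. SE is the standard error of a log2 fold change, and n is 2 arrays per group throughout. The medians of the 4 arrays lay between 4.84 and 4.85 and their lower quartiles between 3.27 and 3.34. A signal under the median of its array is called dim here, and fold changes of dim probe sets are uncertain in size.

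The array-wide measures were as follows. The 3 probe sets of LEF1, from the brightest to the dimmest, differed by -0.71, -0.93 and -0.19 on the log2 scale, and none was called (limma adjusted p = 0.191, 0.141 and 0.673). Pearson's r across probe sets was 0.995 for the pair of siLEF1 arrays and 0.990 for the pair of siNT arrays. Across the groups it was 0.988 and 0.991 between the siLEF1 arrays and siNT replicate 1, and 0.979 and 0.980 between them and siNT replicate 2, so that siNT replicate 1 correlated about as well with siLEF1 replicate 2 as with the other siNT array. Of 8 T-cell markers, 8 lay above the median on both siLEF1 arrays and on siNT replicate 1, and 7 did on siNT replicate 2. The median signals of 3 myeloid markers were 3.92 and 3.93 in siLEF1 cells, against 4.59 and 4.65 in siNT cells. The siNT medians came from different genes, LYZ on replicate 1 and ITGAM on replicate 2. LYZ and CD14 had log2 fold changes of -0.94 and -0.88, whereas ITGAM had one of 0.25. The median signals of 2 erythroid markers were 5.92 and 5.84 in siLEF1 cells, against 6.58 and 6.15 in siNT cells. On each array 1 of 3 myeloid and 2 of 2 erythroid markers lay above the median, and no marker of these cell types, or of B or epithelial cells, was called. The 5' minus 3' signal of ACTB, a measure of RNA integrity, was -1.08 and -1.55 in siLEF1 cells, against -1.80 and -1.95 in siNT cells. The part of these differences in the results below was not tested.

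None of the 30 probe sets was called in either direction (0 lower and 0 higher), where 0.207% of all probe sets were called, 0.183% lower and 0.0238% higher. The smallest adjusted p of a member was 0.169. At an unadjusted p under 0.05 from limma there were 6 lower and 0 higher member probe sets, 20% of the 30. Of all probe sets this share was 15.6%, with 8.79% lower and 6.85% higher. Among probe sets above the array median on all arrays, it was 26.7% of 15 members, against 24.3% of all 25081. Groups without overlap were seen in 15 member probe sets (7 lower and 8 higher in value), which is 50%, against 48.6% of all probe sets (21.2% lower and 27.4% higher), so this share was near the background. The median log2 fold change was 0.03 over the member probe sets and 0.04 over all. The values ran from -0.86 to 0.40, so the largest difference by size was 1.81-fold. The 95% interval of the difference lay within 2-fold of no change in 26 of the 30, so that for these a change of over 2-fold lies outside the interval, while smaller ones remain possible. These bounds hold for the RMA scale only. With centring on housekeeping genes every value moves by -0.23, CDKN1B is at -1.08, and the intervals were not counted.

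**Figure D1:**
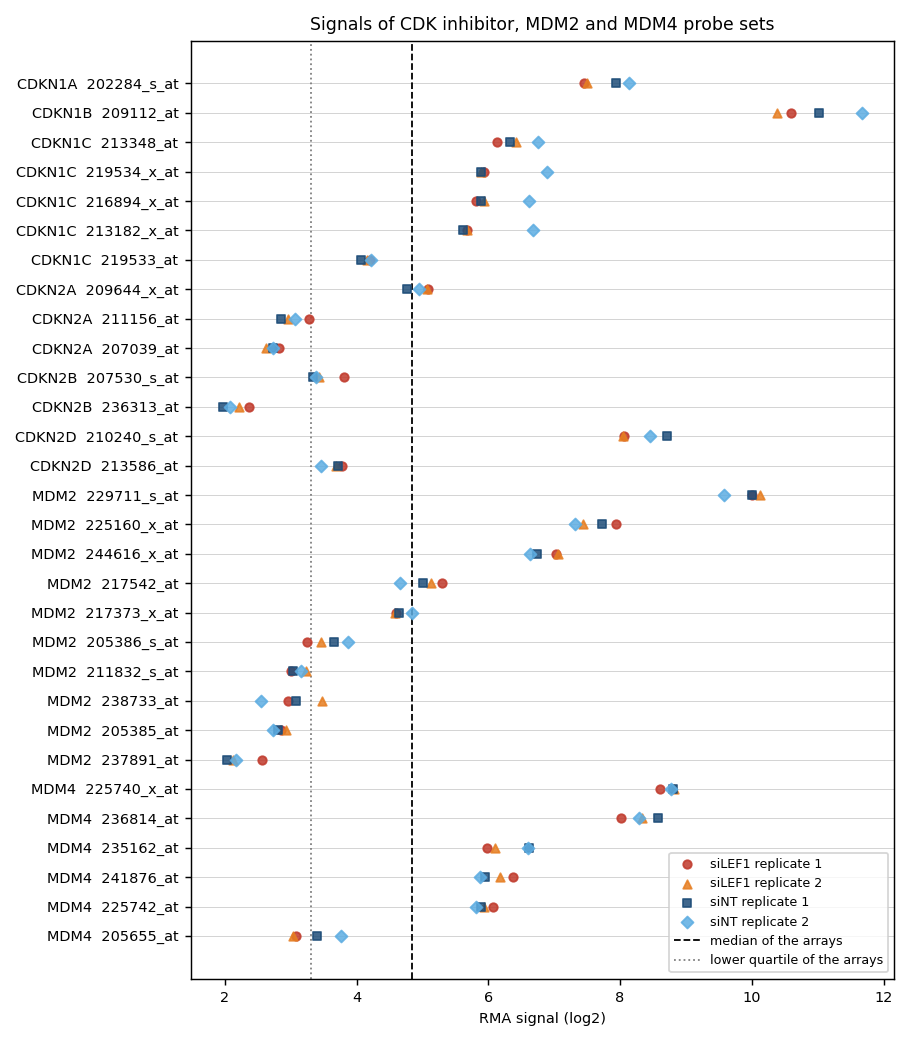
Log2 RMA signals (horizontal axis) of 30 probe sets of CDK inhibitor genes, MDM2 and MDM4 in each array, with circles (replicate 1) and triangles (replicate 2) for siLEF1 and squares (replicate 1) and diamonds (replicate 2) for siNT. The dashed line is the mean of the 4 array medians and the dotted line that of the lower quartiles; 13 probe sets lie under the median on all arrays, among them both of CDKN2B.

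Above the median of the array on all 4 arrays were 15 probe sets, under it on all 4 arrays were 13, and 2 lay near it, with 1 array under it each. Of all 54613 probe sets, 25081 lay above it and 24985 under it on all 4 arrays, so the member shares were near the background. Of the 13 dim member probe sets, 6 lay under the lower quartile on every array. CDKN1A and CDKN1B had no dim probe set, while CDKN1C had 1 of 5, CDKN2A 2 of 3, CDKN2B 2 of 2, CDKN2D 1 of 2, MDM2 6 of 10 and MDM4 1 of 6.

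Among the CIP/KIP genes, CDKN1A encodes p21, which p53 induces after DNA damage. Its single probe set had signals of 7.45 and 7.50 in siLEF1 cells, against 7.94 and 8.14 in siNT cells. Both siLEF1 arrays thus lay under both siNT arrays. The log2 fold change was -0.56 (SE 0.15, limma adjusted p = 0.182), which was not called, and its 95% interval was -0.94 to -0.19. The signal lay on average at percentile 78.5 of its array.

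CDKN1B encodes p27, an inhibitor of CDK2 complexes that accumulates in resting lymphocytes. Its probe set had signals of 10.60 and 10.39 in siLEF1 cells, against 11.02 and 11.68 in siNT cells, at percentile 96.8 of the array on average. The groups did not overlap, but the siNT arrays differed from each other by 0.66. CDKN1B had a log2 fold change of -0.86 (SE 0.24, limma adjusted p = 0.191), or 1.81-fold lower in value, with a 95% interval of -1.45 to -0.27. Against siNT replicate 1 alone the value was -0.52, and against siNT replicate 2 alone it was -1.19.

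CDKN1C encodes p57, an imprinted inhibitor, and was read by 5 probe sets. In all 5 the groups overlapped. The brightest had signals of 6.13 and 6.42 in siLEF1 cells, against 6.33 and 6.75 in siNT cells, with a log2 fold change of -0.27 (limma adjusted p = 0.586). In the 3 probe sets whose names end in _x_at, which marks probes that may bind other transcripts, the log2 fold changes were -0.47, -0.38 and -0.47. In these 3 siNT replicate 2 stood alone, with signals of 6.89, 6.61 and 6.67, while the 2 siLEF1 arrays and siNT replicate 1 lay between 5.61 and 5.94. Against siNT replicate 1 alone, 2 of the 3 had values above 0 (0.03 and 0.06). The dim probe set of CDKN1C had a log2 fold change of 0.03 (limma adjusted p = 0.949).

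**Figure D2:**
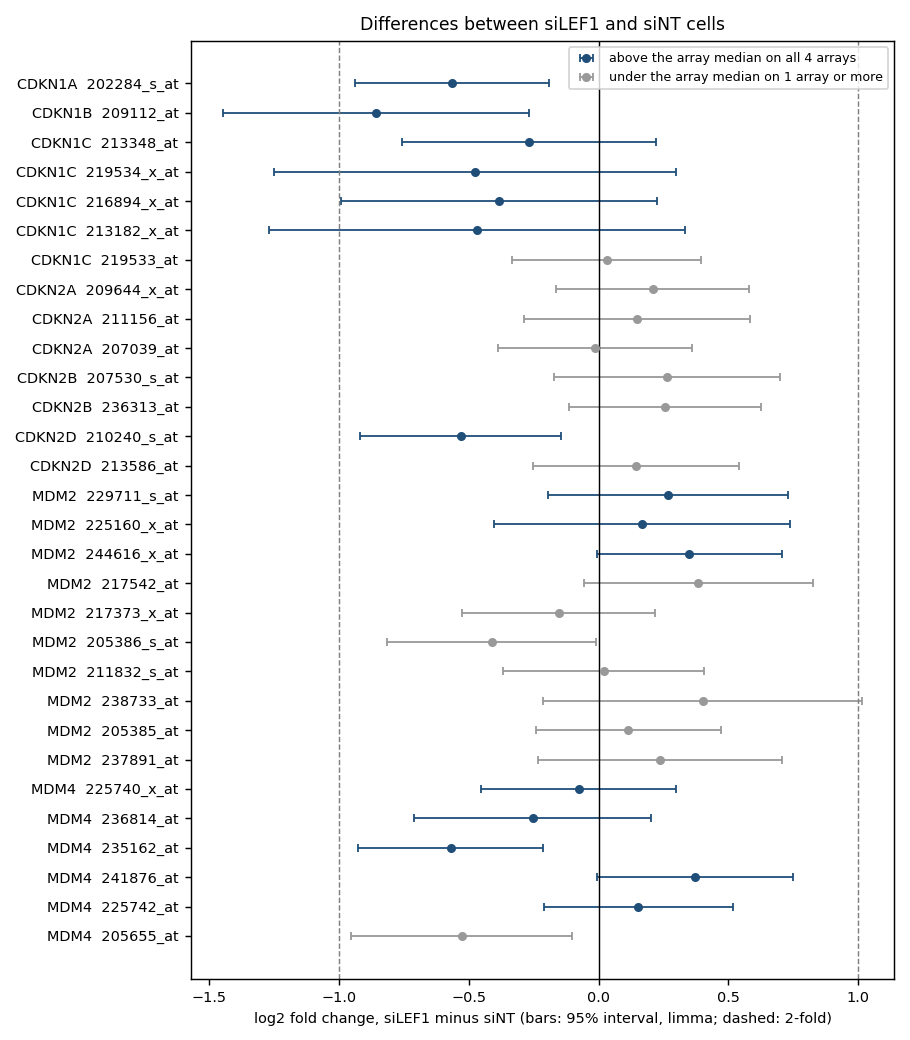
Log2 fold change, siLEF1 minus siNT (horizontal axis), of each of the 30 probe sets, with bars for the 95% interval from limma; blue marks probe sets above the array median on all arrays and grey those under it on 1 array or more. The interval of 6 probe sets leaves out 0, all on the lower side, and 0 of the 30 were called after adjustment over all probe sets.

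Of the INK4 genes, CDKN2D encodes p19, an inhibitor of CDK4 and CDK6. Its brighter probe set had signals of 8.06 and 8.04 in siLEF1 cells, against 8.71 and 8.46 in siNT cells. All siLEF1 values lay under the siNT values, and the siLEF1 arrays differed by 0.02 only. CDKN2D had a log2 fold change of -0.53 in this probe set (SE 0.16, limma adjusted p = 0.207), with a 95% interval of -0.92 to -0.15. The other probe set of CDKN2D was dim on every array, with a log2 fold change of 0.14 (limma adjusted p = 0.733).

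CDKN2A encodes the INK4 inhibitor p16 and ARF from 2 starts of transcription. Its brightest probe set, an _x_at one, had signals of 5.08 and 5.06 in siLEF1 cells, against 4.77 and 4.95 in siNT cells, which is at the median of the array (percentile 51.8 on average). The log2 fold change was 0.21 (limma adjusted p = 0.574). A second CDKN2A probe set had 3.27 and 2.95 in siLEF1 cells, against 2.85 and 3.06 in siNT cells, and the last had 2.82 and 2.62 in siLEF1 cells, against 2.73 and 2.73 in siNT cells. Both lay under the lower quartile on every array, with values of 0.15 and -0.01 for the difference.

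CDKN2B, the neighbour of CDKN2A, encodes the INK4 inhibitor p15. Its brighter probe set had signals of 3.81 and 3.43 in siLEF1 cells, against 3.34 and 3.38 in siNT cells, and its dimmer one had 2.36 and 2.21 in siLEF1 cells, against 1.97 and 2.08 in siNT cells. In both probe sets the siLEF1 signals lay above the siNT signals, at dim levels on all arrays, and the dimmer one was at percentile 2.96 of the array. The log2 fold changes were 0.26 and 0.26 (limma adjusted p = 0.542 and 0.482).

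The genes around CDKN2A and CDKN2B on 9p were examined in their order in RefSeq, each by its brightest probe set. MLLT3, FOCAD and HACD4 lay above the median on all arrays, with signals from 6.55 to 8.58 in siLEF1 cells and from 6.66 to 8.59 in siNT cells. Each of them also had 1 probe set that was dim on all arrays, out of 3, 2 and 2. The next genes, IFNB1, KLHL9, IFNA2, IFNA1 and IFNE, were dim on all arrays. MTAP, which encodes an enzyme of methionine salvage, lies beside CDKN2A. Its brightest probe set was above the median on all arrays, with 5.74 and 5.56 in siLEF1 cells, against 5.33 and 5.63 in siNT cells. The other 5 of its 6 probe sets were dim on all arrays. All 4 probe sets of KLHL9, an adaptor gene of a ubiquitin ligase, were dim as well, as were CDKN2B-AS1, DMRTA1 and ELAVL2. Of these 12 neighbours, 8 were dim on all arrays and 0 were called. Over all 19775 genes by their brightest probe set, 6092 were dim on all arrays and 0.329% were called. The interferon genes among the neighbours are silent in most resting cells. A lost gene and a silent one cannot be told apart by a dim signal.

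**Figure D3:**
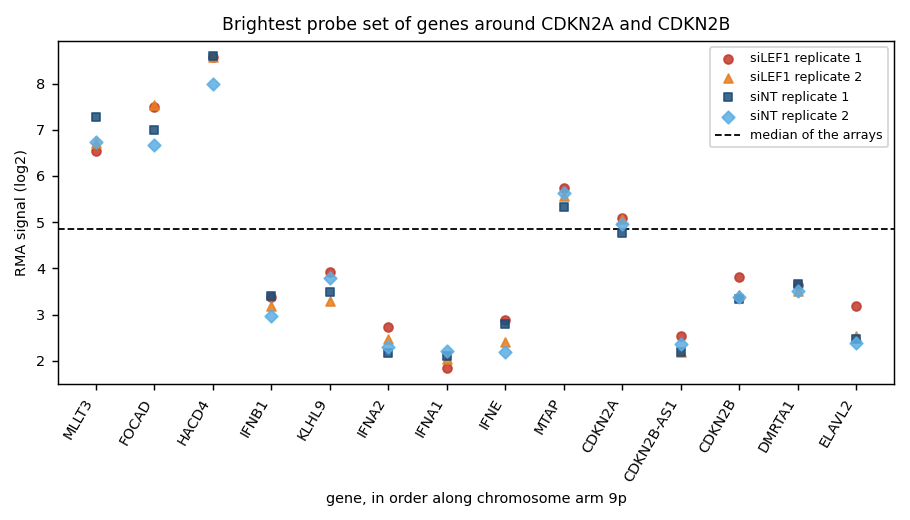
RMA signal on the log2 scale (vertical axis) of the brightest probe set of 14 genes in their order along 9p (horizontal axis, not to distance), in each array, with the siLEF1 replicates as circles and triangles and the siNT replicates as squares and diamonds. MLLT3, FOCAD, HACD4 and MTAP lie above the dashed line of the array medians, with MTAP the closest of them to it. CDKN2A lies at it, and CDKN2B lies under it.

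MDM2 was read by 10 probe sets. Its brightest had signals of 10.00 and 10.12 in siLEF1 cells, against 10.01 and 9.58 in siNT cells, so that siNT replicate 2 was the lowest and the groups overlapped. The log2 fold change of MDM2 in this probe set was 0.27 (SE 0.19, limma adjusted p = 0.564), with a 95% interval of -0.20 to 0.73. It was 0.051 against siNT replicate 1 alone, 0.48 against siNT replicate 2 alone and 0.039 with centring on housekeeping genes. The second by signal, an _x_at one, had 7.94 and 7.43 in siLEF1 cells, against 7.72 and 7.31 in siNT cells, with a value of 0.17.

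The third MDM2 probe set, also an _x_at one, had signals of 7.02 and 7.05 in siLEF1 cells, against 6.74 and 6.63 in siNT cells. There was no overlap, and the log2 fold change was 0.35 (limma adjusted p = 0.328). The fourth lay at the median, with 5.29 and 5.13 in siLEF1 cells, against 5.01 and 4.65 in siNT cells, and a value of 0.38 (limma adjusted p = 0.378). All 4 of these had values above 0, of which the second fell below 0 (-0.060) when arrays were centred on housekeeping genes, and none was called. Of the 6 dim probe sets of MDM2, 2 were lower in value without overlap. The dimmer of them had signals of 3.25 and 3.46 in siLEF1 cells, against 3.66 and 3.87 in siNT cells, and a log2 fold change of -0.41 (limma adjusted p = 0.312). The other, an _x_at one, had 4.59 and 4.58 in siLEF1 cells, against 4.64 and 4.84 in siNT cells, and a value of -0.15 (limma adjusted p = 0.692). The other 4 dim ones had values from 0.02 to 0.40. Of the 10 probe sets of MDM2, 8 thus had values above 0, and the 2 below 0 were both dim. Without overlap there were 3 higher and 2 lower.

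MDM4 was read by 6 probe sets, and they also differed in sign. The brightest, an _x_at one, had signals of 8.61 and 8.82 in siLEF1 cells, against 8.81 and 8.77 in siNT cells. These overlap, and the log2 fold change was -0.08 (SE 0.15, limma adjusted p = 0.862). The next had 8.01 and 8.34 in siLEF1 cells, against 8.57 and 8.29 in siNT cells, with a value of -0.25.

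The third MDM4 probe set had the smallest p of all member probe sets. Its signals were 5.98 and 6.10 in siLEF1 cells, against 6.62 and 6.60 in siNT cells, without overlap. The log2 fold change was -0.57 (SE 0.15, limma adjusted p = 0.169), with a 95% interval of -0.93 to -0.21, and it was not called. Another MDM4 probe set of similar percentile moved the other way in value, with 6.38 and 6.18 in siLEF1 cells, 5.95 and 5.87 in siNT cells and a log2 fold change of 0.37 (limma adjusted p = 0.327). A further one had a value of 0.15 (limma adjusted p = 0.685). The dim MDM4 probe set had signals of 3.08 and 3.03 in siLEF1 cells, against 3.40 and 3.76 in siNT cells, with a value of -0.53 (limma adjusted p = 0.241). Which transcripts of MDM4 each probe set reads was not analysed here.

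The genes whose pattern over the 4 arrays was most like that of the third MDM4 probe set were ID3, LTO1 and SP140L, out of 10323 genes with a mean signal of at least 6. Their root mean square differences from it, after each was centred on its own mean, were 0.016, 0.020 and 0.020 on the log2 scale. Over 4 arrays many genes can come this close, and these are given as a description.

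**Figure D4:**
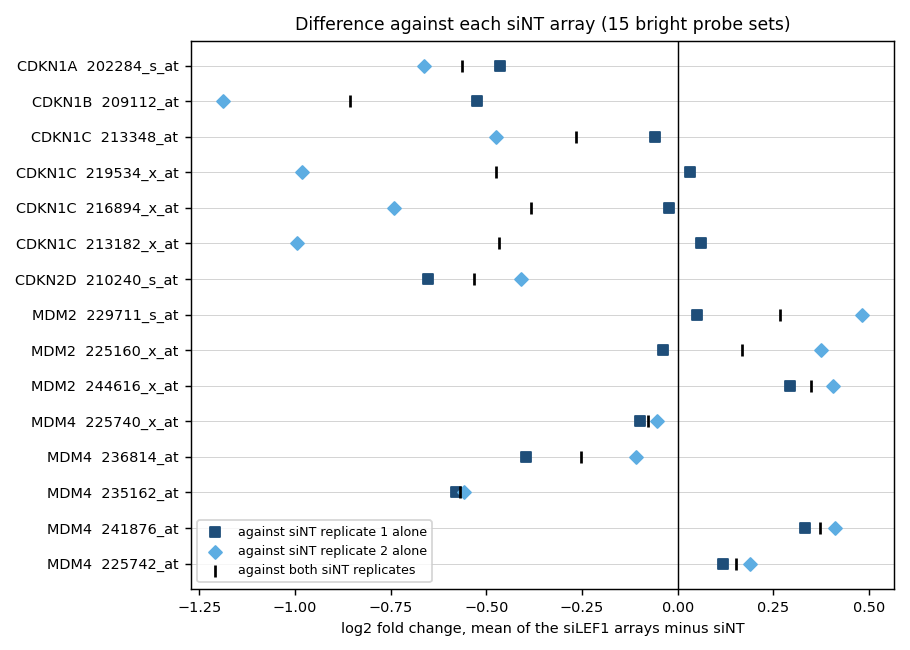
Log2 fold change (horizontal axis) of the 15 probe sets above the array median on all arrays, as the mean of the 2 siLEF1 arrays minus siNT replicate 1 alone (squares), minus siNT replicate 2 alone (diamonds) or minus both (ticks). For CDKN1B the value is -0.52 against siNT replicate 1 and -1.19 against siNT replicate 2, whereas that of the third MDM4 probe set is -0.58 and -0.56.

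The 4 genes with a probe set above the median on all arrays and an unadjusted p under 0.05 were CDKN1A, CDKN1B, CDKN2D and MDM4. The share in either direction was near the background, at 26.7% of 15 such members (4 lower and 0 higher). Of all 25081 such probe sets it was 24.3% (3405 lower and 2701 higher). MDM4 entered by the probe set at -0.57, while its others above the median had -0.08, -0.25, 0.37 and 0.15. The promoters of these 4 genes are shown because LEF1 is a DNA-binding factor, and these genes were the members nearest to the threshold. The sequences are the 250 bases before the start of transcription in RefSeq (GRCh38.p14), 5′ to 3′ on the strand of the gene. Capitals mark GC boxes (GGGCGG) and CCAAT boxes (CCAAT), searched on both strands.
CDKN1A, chr6:36678464-36678713, plus strand: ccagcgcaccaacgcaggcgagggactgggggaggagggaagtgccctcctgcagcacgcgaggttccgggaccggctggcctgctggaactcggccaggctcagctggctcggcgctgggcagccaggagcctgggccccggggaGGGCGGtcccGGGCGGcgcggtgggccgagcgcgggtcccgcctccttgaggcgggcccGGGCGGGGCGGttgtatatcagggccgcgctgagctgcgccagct
CDKN1B, chr12:12717118-12717367, plus strand: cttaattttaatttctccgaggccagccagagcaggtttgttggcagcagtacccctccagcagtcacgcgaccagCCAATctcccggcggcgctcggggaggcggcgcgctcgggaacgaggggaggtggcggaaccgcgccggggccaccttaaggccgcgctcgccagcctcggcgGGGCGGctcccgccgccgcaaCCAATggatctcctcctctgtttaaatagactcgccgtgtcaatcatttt
CDKN2D, chr19:10568980-10569229, minus strand: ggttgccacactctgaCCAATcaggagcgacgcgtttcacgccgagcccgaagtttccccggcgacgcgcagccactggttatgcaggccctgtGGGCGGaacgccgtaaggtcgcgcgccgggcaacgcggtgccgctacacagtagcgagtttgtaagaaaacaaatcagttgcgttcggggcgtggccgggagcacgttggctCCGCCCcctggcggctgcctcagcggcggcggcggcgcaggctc
MDM4, chr1:204516156-204516405, plus strand: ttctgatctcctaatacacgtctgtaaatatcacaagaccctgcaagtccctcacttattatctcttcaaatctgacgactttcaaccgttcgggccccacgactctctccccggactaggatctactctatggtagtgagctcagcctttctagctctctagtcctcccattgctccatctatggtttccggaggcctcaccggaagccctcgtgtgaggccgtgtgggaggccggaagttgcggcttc

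These promoters differ in their makeup. The CDKN1A window holds 4 GC boxes, of which 2 overlap each other, and 76.4% of its bases are G or C. The CDKN1B window holds 1 GC box and 2 CCAAT boxes, and that of CDKN2D holds 2 GC boxes, 1 of them on the other strand, and 1 CCAAT box. The MDM4 window holds neither, and its share of G and C is 52.8%, against a median of 58% over 35116 promoters. A GC box occurs in 42.6% of all these promoters and a CCAAT box in 32%. The letters CTTTGA or CTTTGT, to which LEF1 and its TCF relatives bind, occur on either strand in 22.8% of all promoters. They occur in 0 of the 14 windows found for the member genes. These windows include those of CDKN2C, which had no signals here, and overlapping ones of MDM2, so they are not 14 separate observations. CDKN1C had no window. Sites farther from the start were not searched.

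The complexes that the inhibitors act on were read by 12 genes of cyclins and CDKs, each by its brightest probe set. Their median log2 fold change was 0.30, against 0.02 over all 19775 genes. Of the 12 values, 10 lay above 0, as did 10581 of the 19775. The siNT arrays differed from each other by a median of 0.40 in the 12, against 0.21 over all genes, and the siLEF1 arrays by 0.09. In each of the 12, siNT replicate 2 had the lowest signal. None of them was called, where 0.329% of all genes were by their brightest probe set. CCNE2, whose cyclin activates CDK2 at the start of S phase, had signals of 9.96 and 9.87 in siLEF1 cells, against 9.56 and 9.19 in siNT cells, with a value of 0.54 (limma adjusted p = 0.241). CCNA2, CCND2 and CDK4 had values of 0.44, 0.44 and 0.43 (limma adjusted p = 0.328, 0.337 and 0.342). With the arrays centred on housekeeping genes, every log2 fold change moves by -0.23, so values between 0 and 0.23 are below 0 with that scaling.

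For the RB family and E2F factors, 0 of 10 genes were called and the median log2 fold change was 0.27. In these genes the siNT arrays differed from each other by a median of 0.44 and the siLEF1 arrays by 0.061. The dimerization partners TFDP1 and TFDP2 had values of 0.56 and 0.41, and E2F5 one of 0.46 (limma adjusted p = 0.239, 0.298 and 0.294). E2F3 had one of 0.36. In TFDP1 the signals were 11.64 and 11.64 in siLEF1 cells, against 11.29 and 10.86 in siNT cells, so siNT replicate 2 was the lowest.

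Among 13 genes of the turnover of the inhibitors, 0 were called, with a median log2 fold change of 0.20. The median difference between the siNT arrays in these genes was 0.26, and that between the siLEF1 arrays was 0.043. SKP2, the ubiquitin ligase subunit that marks p27 for degradation, had signals of 11.14 and 11.06 in siLEF1 cells, against 10.47 and 10.09 in siNT cells. The groups did not overlap, and the log2 fold change of SKP2 was 0.82 (SE 0.18, limma adjusted p = 0.135). SKP2 acts on the p27 protein, which the arrays do not measure. UBAC1 and RNF123 encode the subunits of another ligase of p27, and their values were 0.65 and -0.36 (limma adjusted p = 0.195 and 0.320). CUL1, the scaffold of the SKP2 ligase, had 0.36.

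**Figure D5:**
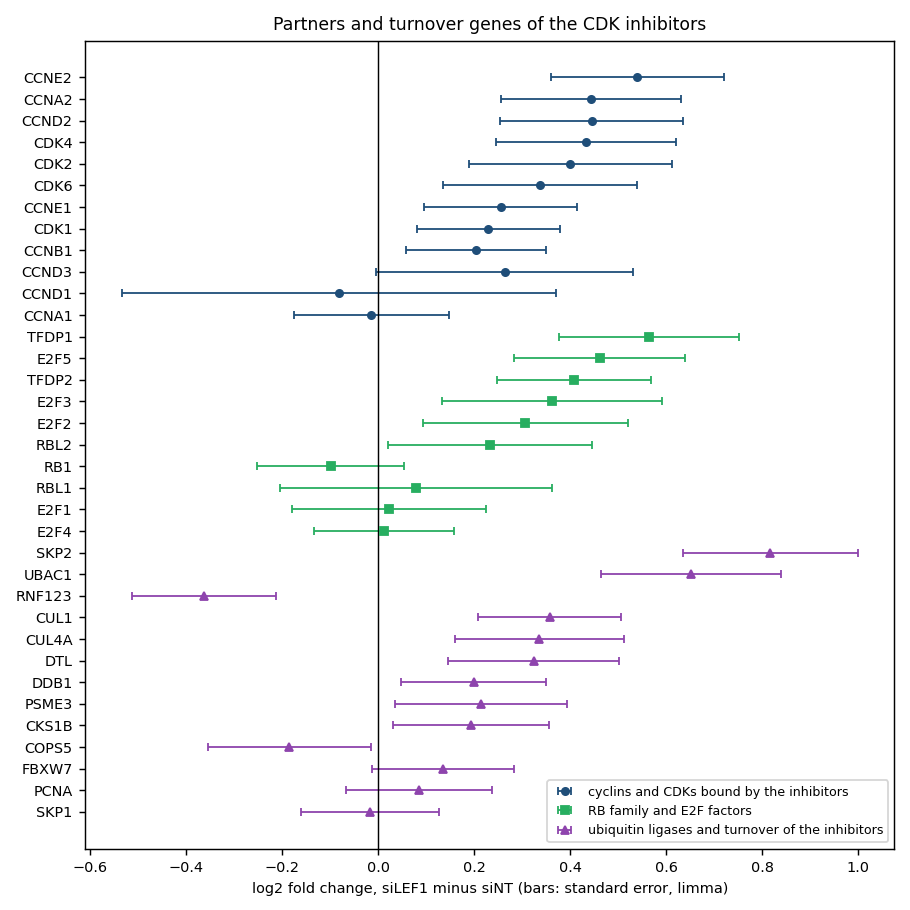
Log2 fold change, siLEF1 minus siNT (horizontal axis), with bars for the standard error (SE) from limma, of 12 cyclins and CDKs, 10 RB and E2F family genes and 13 turnover genes, each by its brightest probe set. Most values lie above 0, although those under 0.23 lie below it with centring on housekeeping genes, SKP2 has 0.82, and 0 of these genes were called.

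The transcription factors known to act on inhibitor genes gave 16 of 17 listed genes, of which 0 were called, with a median log2 fold change of -0.16. ETS2 had signals of 11.27 and 11.13 in siLEF1 cells, against 9.99 and 9.93 in siNT cells, with a log2 fold change of 1.24 (SE 0.15, limma adjusted p = 0.0559). ID1, an inhibitor of E proteins, had 8.43 and 8.28 in siLEF1 cells, against 9.44 and 9.89 in siNT cells, with a log2 fold change of -1.31 (limma adjusted p = 0.0767). Neither was called. MYC, which represses CDKN1A and CDKN2B, had a value of 0.88 (limma adjusted p = 0.139). KLF6, an activator of CDKN1A, had 9.43 and 9.19 in siLEF1 cells, against 9.86 and 11.06 in siNT cells, with a value of -1.15 (limma adjusted p = 0.231), and siNT replicate 2 was the highest of the 4 arrays.

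Around MDM2 and p53, 21 of 24 listed genes were read, 1 was called lower and 0 were called higher, and the median log2 fold change was 0.03. Over all genes, 0.329% were called by their brightest probe set. The 1 called gene was listed with its fall in the paper already known, so this count does not describe the list as a whole. The called gene was DHRS2, a dehydrogenase/reductase whose protein binds MDM2, with signals of 5.74 and 5.47 in siLEF1 cells, against 9.16 and 8.85 in siNT cells in the probe set that is brighter on average. DHRS2 fell by 3.40 on the log2 scale in it (limma adjusted p = 0.0137). In its other probe set DHRS2 had 3.77 and 4.36 in siLEF1 cells, against 10.65 and 10.32 in siNT cells, and fell by 6.43 on the log2 scale (limma adjusted p = 0.00516). PPM1D, a phosphatase of the p53 pathway, had signals of 9.54 and 9.33 in siLEF1 cells, against 9.87 and 10.91 in siNT cells, with a value of -0.96 (limma adjusted p = 0.255). RCHY1, another ubiquitin ligase of p53, had -0.77, and CSNK1A1, a kinase that acts with MDM4, had -0.50 (limma adjusted p = 0.202 and 0.222).

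Of 7 further genes named for binding or resembling CDK regulators, 0 were called and the median log2 fold change was -0.10. CDKN2AIP, which encodes a protein that binds ARF, had signals of 9.11 and 8.77 in siLEF1 cells, against 9.76 and 10.56 in siNT cells, with a value of -1.22 (SE 0.29, limma adjusted p = 0.145). CDK5RAP1, CDK2AP1 and CABLES2 had values of -0.55, 0.44 and 0.43 (limma adjusted p = 0.218, 0.254 and 0.362).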

How the data were processed

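RNA of 2 siLEF1 and 2 siNT samples of Jurkat cells was hybridized to HG-U133 Plus 2.0 arrays. The deposited values are log2 signals that the authors extracted and normalized by RMA with Expression Console from Affymetrix (the submitters' processing notes give version 1.1), with no filter and with replicates kept apart. RMA equalizes the distributions of the arrays, so a shift shared by most genes cannot be seen. Conditions and replicate numbers came from the sample labels.

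After 62 control probe sets were left out, siLEF1 minus siNT was fitted on 54613 probe sets in R 4.3.3 with lmFit and eBayes of limma 3.58.1, and 2-sided p-values were adjusted by Benjamini-Hochberg. The methods of the paper name 3 groups, of which 2 were compared. Symbols came from the platform annotation, updated by Entrez number, and 41091 probe sets had 1 symbol. In other lists each gene was represented by its brightest probe set, by mean over arrays, and genes were named if called or among the 4 with the smallest p. The members and lists were chosen with earlier results of these data known. Promoters were matched by symbol to a RefSeq table, which held 8 of the 9 member genes, all but CDKN1C. The model was run on simulated data with independent noise for each probe set and array. Such data hold no deviation shared by the probe sets of an array, so they do not vouch for the fit here. The number of arrays limits the precision. Alternatives were other centrings, a filter on dim signals, other moderation, a replicate block, fewer probe sets, other fold thresholds and each array left out.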

Additional observations from a re-analysis of the deposited data

How the results depend on the processing

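No member probe set was called under any alternative run (0 lower and 0 higher in each). Of the log2 fold changes of the members under the alternatives, 18 had the opposite sign and 289 kept it. None of the probe sets concerned had been called. The filter, other moderation, the replicate block and fewer probe sets leave each log2 fold change as it is, and centring on the array median hardly moves it. Most of the 289 thus could not change sign. All 18 came from centring on housekeeping genes or from leaving out 1 array. Centring on housekeeping genes moved every value by -0.23, so that the overall median was -0.19 and not 0.04. The values that changed sign were then -0.20 for the dim CDKN1C probe set, -0.019 and -0.078 for CDKN2A, -0.085 for the dim CDKN2D probe set, -0.060, -0.21 and -0.11 for MDM2 and -0.075 for MDM4. In that fit the third MDM4 probe set had a limma adjusted p of 0.0494 at a log2 fold change of -0.80, under the 2-fold threshold. CDKN1B passed 2-fold there, with a log2 fold change of -1.08, but not the p threshold (limma adjusted p = 0.0635). CDKN1A had a value of -0.79 (limma adjusted p = 0.0513).

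With each array left out in turn, the log2 fold changes that changed sign in at least 1 of the 4 fits ran from -0.98 to 0.031, from -0.996 to 0.060 and from -0.043 to 0.11 in CDKN1C, from -0.0098 to 0.31 and from -0.11 to 0.086 in CDKN2A, from -0.091 to 0.43 and from -0.091 to 0.13 in MDM2, and from -0.18 to 0.024 in MDM4, each range for 1 probe set. In these fits the lone array of a group is assumed to vary like the pair in the other group. Over all probe sets, leaving out 1 array gave 0 to 1287 lower and 0 to 595 higher calls, with calls only without siNT replicate 1.

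With all arrays, 100 probe sets were lower and 13 higher. The calls over all probe sets were 1265 lower and 25 higher with housekeeping centring, 4 and 1 with a filter at a mean signal of 6, 130 and 20 with trend and robust moderation, 171 and 29 with 1 probe set per gene, and 0 and 0 by an F test without moderation. With the replicate number as a block they were 977 and 120, although the deviations of same-numbered samples had a correlation of -0.15 and the numbers were not taken to pair the samples. With the numbers crossed, chosen after seeing the data, limma called 763 lower and 159 higher and 0 member probe sets.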
